A study of Homo sapiens with 4 samples.

Results

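The regions described here are the m7G peaks that lie on human chromosome 13, in a 10 Mb segment of the short arm of chromosome 3 (chr3:30-40 Mb) and in a 10 Mb segment of the long arm of chromosome 14 (chr14:30-40 Mb), on genome build hg19. They were chosen by position, and the positions were chosen because the peak lists of the cell lines had already been seen to differ there. By the start of each peak, 464 of 16192 listed peaks were members, 242 of 8070 in HL60 and 222 of 8122 in HL60/MX2. Chromosome 13 held 178 of them in HL60 and 183 in HL60/MX2, the chromosome 3 segment held 33 and 18, and the chromosome 14 segment held 31 and 21.

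The study profiled N7-methylguanosine (m7G) in the mRNA of HL60 cells, a human acute myeloid leukemia line with the genotype given as WT, and of HL60/MX2 cells, a drug-resistant line derived from HL60. Both lines were grown in the same medium with no other agent named, and each gave 1 immunoprecipitated library whose peak list is used here. The peaks of each list came from poly(A) RNA that was decapped, broken into fragments and pulled down with an m7G antibody. With 1 library per line no difference had a replicate check, so values are set side by side with intervals that cover counting error only, and nothing was tested. The lists hold peaks and no expression values, so neither the labelled cell type nor the RNA level of a gene could be checked, and a missing peak and a scarce transcript cannot be told apart.

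m7G is best known as the cap at the start of an mRNA, and it also occurs inside the transcript, where methyltransferases place it. Internal m7G is mapped by removing the cap, breaking the RNA and enriching the fragments that an m7G antibody binds. Chromosome 13 carries RB1, a restraint on entry into S phase, and FLT3, a receptor kinase often mutated in acute myeloid leukemia. The chromosome 3 segment carries ITGA9, an integrin subunit, and CLASP2, a microtubule-binding protein, and the chromosome 14 segment carries the homeobox genes PAX9, NKX2-1 and NKX2-8 and the pioneer factor FOXA1.

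In these regions 16 places carried an overlapping peak on the same strand in both lists. Chromosome 13 held 13 of them, 7.30% of its HL60 peaks and 7.10% of its HL60/MX2 peaks. This was near the 6.13% and 6.09% that the whole lists shared. For 5 of the places the transcript sequence of 30 bases at the centre of the overlap is shown. RB1 and BAZ1A are shown because their peaks had the same start and end in both lists. CCNA1 is shown as a cell cycle gene whose shared peak ranked far apart in the lists, ATP12A because its shared peak had the top score of the HL60/MX2 list, and CLASP2 because it was the only shared peak of the chromosome 3 segment. Sequences are from hg19, 5′ to 3′ on the strand of the gene, and capitals mark a match to 1 of the 6 motifs searched (CTGGA or CTGGG, and CTGTA or CTGTG, and GGAAA or GGAAG). None of these 5 windows held a match, which says only that the letters are not in these bases. Among the shared windows that are not shown, TNFRSF19 held CTGTA and NALCN held CTGGA. A window in no exon, at chr13:31222673-31222702, held CTGGG and GGAAA.
RB1: ttcatatgtctttattggcgtgcgctcttg
BAZ1A: attgaagattatgttgatatattacgacag
CCNA1: taaagcgtaccttgatataccccatcgacc
ATP12A: ctcaaaaagaaaaatcacaaagaggagttt
CLASP2: ctgattggctgttacagcacctagggcagg

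The RB1 window is chr13:48954324-48954353 on the plus strand, in coding exon 16 of 27. The BAZ1A window is chr14:35253036-35253065 on the minus strand, in coding exon 14 of 26 of a gene for a subunit of a chromatin remodelling complex. The CCNA1 window is chr13:37016376-37016405 on the plus strand, near the stop codon in exon 8 of 9 of the cyclin A1 gene. The ATP12A window is chr13:25255811-25255840 on the plus strand, in coding exon 2 of 23 of the gene for a non-gastric proton pump. The CLASP2 window is chr3:33686968-33686997 on the minus strand, of which 28 of 30 bases lie in an exon that is not part of the longest coding transcript of this microtubule-binding protein.

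The centres of the highest scoring peaks of the 10 Mb segments follow, since none of these peaks overlapped a peak of the other list. SUSD5, TTC6 and EDNRB are from HL60, and LMO7, MOBP and NUBPL are from HL60/MX2.
SUSD5: agctgtcgatgtgagaattgagagcaaccc
MOBP: gtgtggttggacctggcatggaacttaact
TTC6: ttaagaGGAAGcaaagttcatggagtattg
NUBPL: agtgtgCTGGAcgtgcctacttttcaggca
LMO7: tataatggtccccatcttaatttgaaagcg
EDNRB: tgcgttcctgcctaatttttatatcttcta

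The SUSD5 window is chr3:33249344-33249373 on the minus strand, in coding exon 3 of 5. The LMO7 window is chr13:76370823-76370852 on the plus strand, in coding exon 7 of 32. The EDNRB window is chr13:78470984-78471013 on the minus strand, in the 3′ UTR in exon 8 of 8. MOBP at chr3:39508717-39508746, TTC6 at chr14:38306711-38306740 and NUBPL at chr14:32030867-32030896, all on the plus strand, lie in exons outside the longest coding transcript of their gene. TTC6 held GGAAG and NUBPL held CTGGA.

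The peak names in the lists carry a running number that never fell along a list and that skips many values, and the lists hold 0.869% of the numbers passed on the autosomes for HL60 and 1.05% for HL60/MX2. What the skipped numbers stood for is not stated in the files. The rise of this number between the first and last listed peak of a stretch, divided by the distance between them, is called the rise per Mb. Over the autosomes it was 324.6 per Mb in HL60 and 268.9 in HL60/MX2, a ratio of 0.828. A ratio of a segment is given as HL60/MX2 over HL60, and the relative ratio is that value divided by 0.828.

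In the chromosome 3 segment the running number rose by 369 per Mb in HL60 and by 177 per Mb in HL60/MX2. The ratio was 0.479 and the relative ratio 0.578. In the chromosome 14 segment the rise was 357.5 per Mb in HL60 and 177 per Mb in HL60/MX2, with a ratio of 0.496 and a relative ratio of 0.598. Both segments stood above the autosomal value in HL60 and well below it in HL60/MX2. Of 264 autosomal windows of 10 Mb, 9 (3.41%) had a relative ratio of at most 0.8, and these segments ranked 3 and 4 from the lowest, after a pair of windows on chromosome 18. They were chosen on this measure, so their rank is a description.

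The next windows out did not by themselves show where the difference ended. On chromosome 3 the relative ratio was 0.978 at 20-30 Mb and 0.803 at 40-50 Mb, just outside the limit of 0.8. The value at 20-30 Mb mixed unlike parts, since the HL60/MX2 rise was 373 per Mb over chr3:10-26 Mb and 181 over chr3:26-30 Mb. Farther out, the windows at 0-10 and 10-20 Mb had relative ratios of 1.32 and 1.34, ranks 7 and 4 from the highest. On chromosome 14 the window at 20-30 Mb had a relative ratio of 0.793, just inside it. In steps of 2 Mb the low stretch of HL60/MX2 was longer than the 10 Mb segment on both chromosomes. On chromosome 3 the rise in HL60/MX2 fell from 398 per Mb between the peaks of THRB and TOP2B to 176 between those of TOP2B and LRRC3B. It stayed low up to the peak of XCR1, at 174 per Mb before it and 347 after it, while HL60 had 368 and 338 per Mb on the low side of these edges. These HL60 values are interpolated between listed peaks. With no HL60 peak from 22 to 26 Mb, a step of HL60 at the left edge could not be seen. Just after XCR1, over 0.239 Mb, HL60 had 418 per Mb. Over chr3:26-46 Mb the rise was 363 per Mb in HL60 and 178 in HL60/MX2, with 66 and 29 peaks.

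On chromosome 14 the left edge lay between the peak of CARMIL3, up to which the HL60/MX2 rise was 338 per Mb, and that of GZMH, after which it was 190 per Mb. The right edge could not be placed more closely than the gap between the peaks of MIA2 and FSCB, 5.18 Mb long, across which the HL60/MX2 rise was 223 per Mb. From 25 to 40 Mb the rise was 356 per Mb in HL60 and 170 in HL60/MX2, a ratio of 0.478. The plot of rise per Mb around the chromosome 3 and 14 segments shows both edges.

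**Figure D1:**
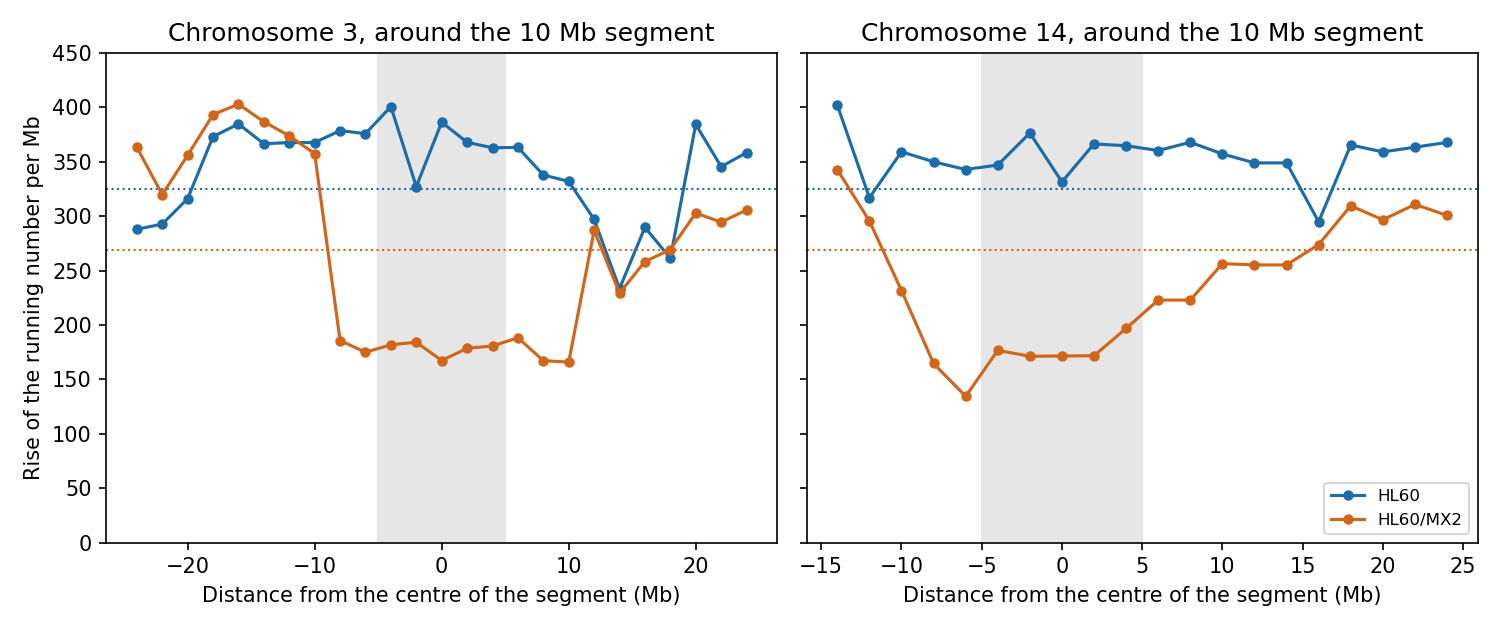
Rise of the running number per Mb in steps of 2 Mb (interpolated between listed peaks) against the distance in Mb from the centre of the 10 Mb segment (grey) of chromosome 3 (left) and chromosome 14 (right), for HL60 (blue) and HL60/MX2 (orange), with dotted lines at the autosomal values of 324.6 and 268.9. In the grey bands HL60 runs from 327 to 401 on chromosome 3 and from 332 to 376 on chromosome 14, while HL60/MX2 runs from 167 to 184 and from 171 to 197.

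Listed peaks were fewer in HL60/MX2 in both segments, and the exact intervals of the peak densities overlapped. The chromosome 3 segment had 86.3 peaks per Mb of exon in HL60 (95% Poisson interval 59.4 to 121) and 47.0 in HL60/MX2 (27.9 to 74.4). The ratio of the peak counts was 0.545, with an exact interval of 0.289 to 0.997. Both segments were chosen because the lists differed there, so an interval below 1 describes these counts and is no test. The chromosome 14 segment had 90.9 peaks per Mb of exon in HL60 (61.8 to 129) and 61.6 in HL60/MX2 (38.1 to 94.1), a ratio of 0.677 (0.370 to 1.22). Over all autosomes the values were 74.2 and 74.7, so the density of both segments lay above the autosomal value in HL60 and below it in HL60/MX2. The listed share of running numbers was 0.912% for HL60 (0.629 to 1.28) and 1.31% for HL60/MX2 (0.775 to 2.06) on chromosome 3, and 0.952% (0.647 to 1.35) and 1.23% (0.760 to 1.87) on chromosome 14. These intervals overlapped, and the autosomal share was also higher in HL60/MX2, at 1.05% against 0.869%.

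**Figure D2:**
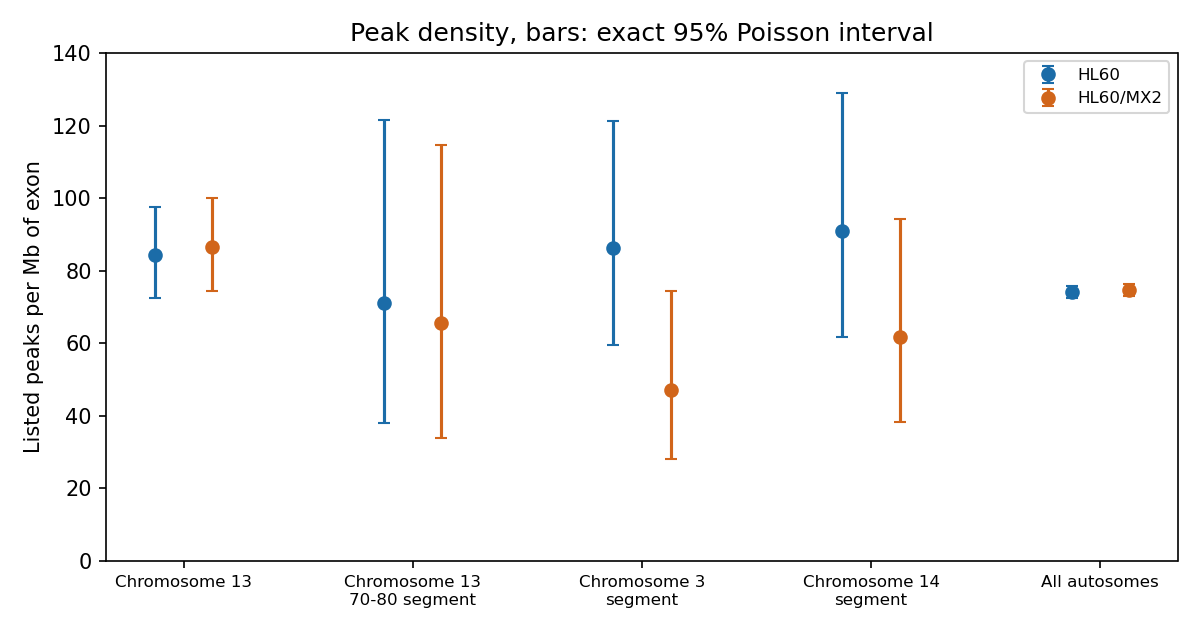
Listed peaks per Mb of exon (points) with exact 95% Poisson intervals (bars, counting error only) for chromosome 13, its 70-80 Mb segment, the chromosome 3 and 14 segments and all autosomes, for HL60 (blue) and HL60/MX2 (orange). In the chromosome 3 segment the HL60/MX2 point is at 47.0 and the HL60 point at 86.3, and on chromosome 13 the points are at 86.6 and 84.2.

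Of the 56 protein-coding genes placed in the chromosome 3 segment, 22 had a peak in HL60 (39.3%, exact interval 26.5 to 53.2), against 26.4% of all 20162 genes. In HL60/MX2 14 had a peak (25%, 14.4 to 38.4), against 28.6% of all genes. A peak in both lists was found for 9 genes (16.1%), where the share of all genes was 12.0%. HL60 alone had 13 of the genes (23.2%, all genes 14.5%), and HL60/MX2 alone had 5 (8.93%, all genes 16.6%). The interval for HL60 lay just above the share of all genes, and that for HL60/MX2 alone, 2.96 to 19.6, included it. Since the segment was chosen because the lists differed there, these intervals are a description and no test.

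Among the 13 genes of the chromosome 3 segment with a peak in HL60 alone, SUSD5 had the most, with 3 peaks in HL60 against 0 in HL60/MX2. Its exon 3 peak had a score of 1365, rank 64 of the HL60 list. TTC21A followed with 1 peak of score 1016, and LRRFIP2 with 1 of score 667. CNOT10, a subunit of the CCR4-NOT deadenylase, had 2 HL60 peaks, as did the kinase gene DCLK3, TRANK1 and SCN11A, a sodium channel of sensory neurons. SLC25A38, a mitochondrial carrier needed for heme synthesis, had 1 peak in HL60 against 0 in HL60/MX2.

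The 5 genes of this segment with a peak in HL60/MX2 alone were CMTM8, GLB1, OXSR1, SLC22A13 and MOBP. MOBP, a myelin protein gene, had the highest HL60/MX2 score of the segment, 938 (rank 529). CMTM8 had a score of 588, and the lysosomal beta-galactosidase gene GLB1 a score of 112. The 9 genes with peaks in both lists were OSBPL10, CLASP2, PDCD6IP, ARPP21, ITGA9, PLCD1, DLEC1, XYLB and WDR48. ITGA9, an integrin subunit, had 2 peaks in each list and none of them overlapped. Only the CLASP2 peak at chr3:33686971-33686995 in HL60 met one in HL60/MX2, which began at 33686949 and had the same end.

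Of the 48 genes placed in the chromosome 14 segment, 24 had a peak in HL60 (50%, 35.2 to 64.8) against 16 in HL60/MX2 (33.3%, 20.4 to 48.4). Both lists had a peak in 10 genes, HL60 alone in 14 and HL60/MX2 alone in 6. These were 20.8%, 29.2% and 12.5%, where all genes had 12.0%, 14.5% and 16.6%. The share with an HL60 peak and the share with a peak in HL60 alone had intervals above the values of all genes. Since this segment was chosen because the lists differed there, that is a description and no test.

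NPAS3, a transcription factor of the bHLH-PAS family, had 3 peaks in HL60 against 0 in HL60/MX2. AKAP6, an anchoring protein for protein kinase A, and PAX9 had 2 and 0. The highest HL60 scores were in TTC6 (809), EGLN3, a prolyl hydroxylase that acts on hypoxia-inducible factor (745), and NKX2-8 (683). GEMIN2, a part of the SMN complex that assembles spliceosomal particles, had 1 HL60 peak of score 531. The homeobox gene NKX2-1 and NFKBIA, the inhibitor of NF-kappaB, had no peak in either list.

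In HL60/MX2 alone the segment had peaks in COCH, AP4S1, NUBPL, MBIP, FOXA1 and SEC23A. NUBPL, an assembly factor of mitochondrial complex I, had the highest score, 877 (rank 607). MBIP had 2 peaks, 1 of score 716, and SEC23A, a coat subunit of vesicles that leave the endoplasmic reticulum, had 2. MIA2, which works at the sites where such vesicles form, had 2 peaks in HL60 against 3 in HL60/MX2 at different places. BAZ1A had 1 and 2, of which 1 was the same in both lists.

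**Figure D3:**
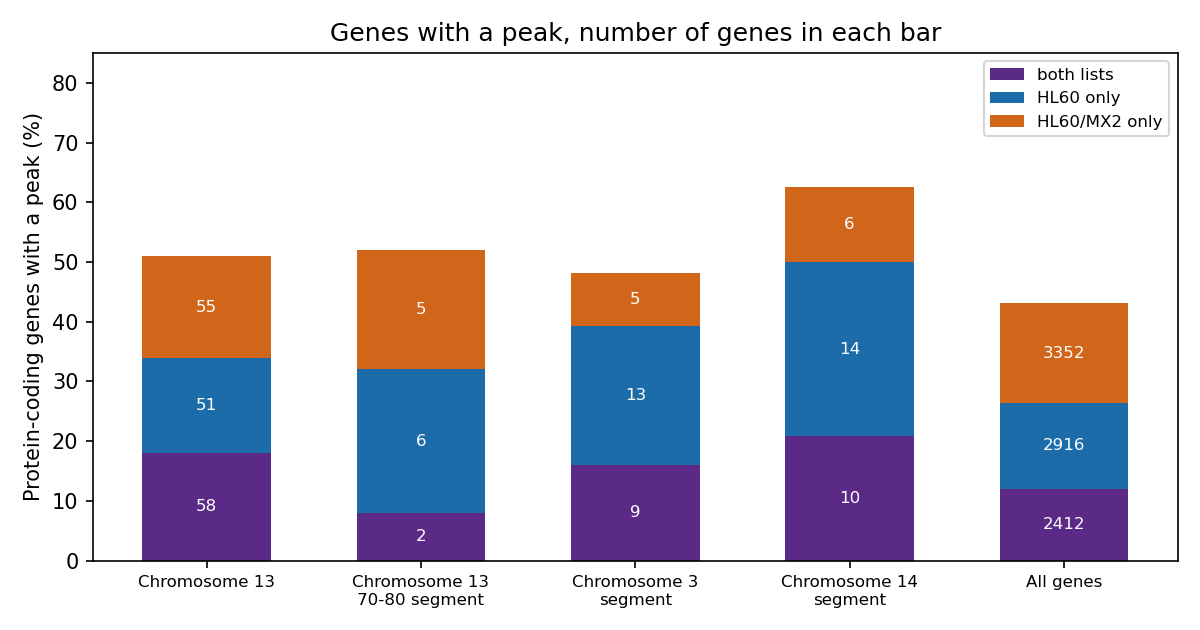
Percent of protein-coding genes with a peak in both lists (purple), in HL60 alone (blue) and in HL60/MX2 alone (orange), with the number of genes in each bar, for the 4 stretches and for all 20162 genes. The blue part is larger than the orange part in the chromosome 3 and 14 segments (13 against 5 and 14 against 6), while on chromosome 13 the parts are 51 and 55.

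Chromosome 13 went the other way. The running number rose by 348.4 per Mb in HL60 and 349.5 per Mb in HL60/MX2, a ratio of 1.00 and a relative ratio of 1.21. This was the highest ratio of the 22 autosomes. Its HL60/MX2 rise also ranked 1 of 22, and its HL60 rise ranked 4. Peaks per Mb of exon were 84.2 (72.3 to 97.5) in HL60 and 86.6 (74.5 to 100.06) in HL60/MX2, and the intervals overlapped almost wholly. The listed share of running numbers was 0.539% and 0.551%, below the autosomal shares in both lists.

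Chromosome 13 was not even along its length in HL60/MX2. Of its windows with a ratio, 6 had a relative ratio at or above the inverse of 0.8, which 18 of 264 windows (6.82%) had. These were 20-30 Mb at 1.27, 40-50 Mb at 1.26, 50-60 Mb at 1.251, 70-80 Mb at 1.28, 90-100 Mb at 1.31 and the end of the chromosome from 110 Mb at 1.45, the highest of all 264. The window at 50-60 Mb was just inside that limit and that at 100-110 Mb, at 1.22, was outside it. The value at 90-100 Mb rests on a short part of that window in HL60/MX2. Its first and last HL60/MX2 peaks lay 4.32 Mb apart and those of HL60 7.11 Mb apart. The ratio of this window was 1.09. In steps of 2 Mb between listed peaks it was 0.904, 0.866, 0.979 and 0.961 from 90 to 98 Mb. From 98 to 100 Mb it was 1.17. Whether the window stays inside the limit when read in such steps was not tested.

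The HL60/MX2 rise moved in steps. It was 401 per Mb from 25 to 33 Mb, 299 from 33 to 43 Mb and 392.2 from 43 to 54 Mb. HL60 had 350.2, 368 and 363 per Mb in the same stretches, a much narrower range. The first step lay between the peaks of FRY and PDS5B, a cohesin regulator. HL60 was low there too, since between the peaks of N4BP2L1 and PDS5B both lists had 284 per Mb. The lists parted after PDS5B, at 377 per Mb in HL60 and 278 in HL60/MX2. The next step of HL60/MX2 lay at the peak of DGKH, a diacylglycerol kinase, with 323 per Mb before it and 393 after it. HL60 had 397 and 382 per Mb there. These HL60 values are interpolated between listed peaks. From 84 to 94 Mb, where each list had 2 peaks, the rise was 333 per Mb in HL60 and 296 in HL60/MX2.

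**Figure D4:**
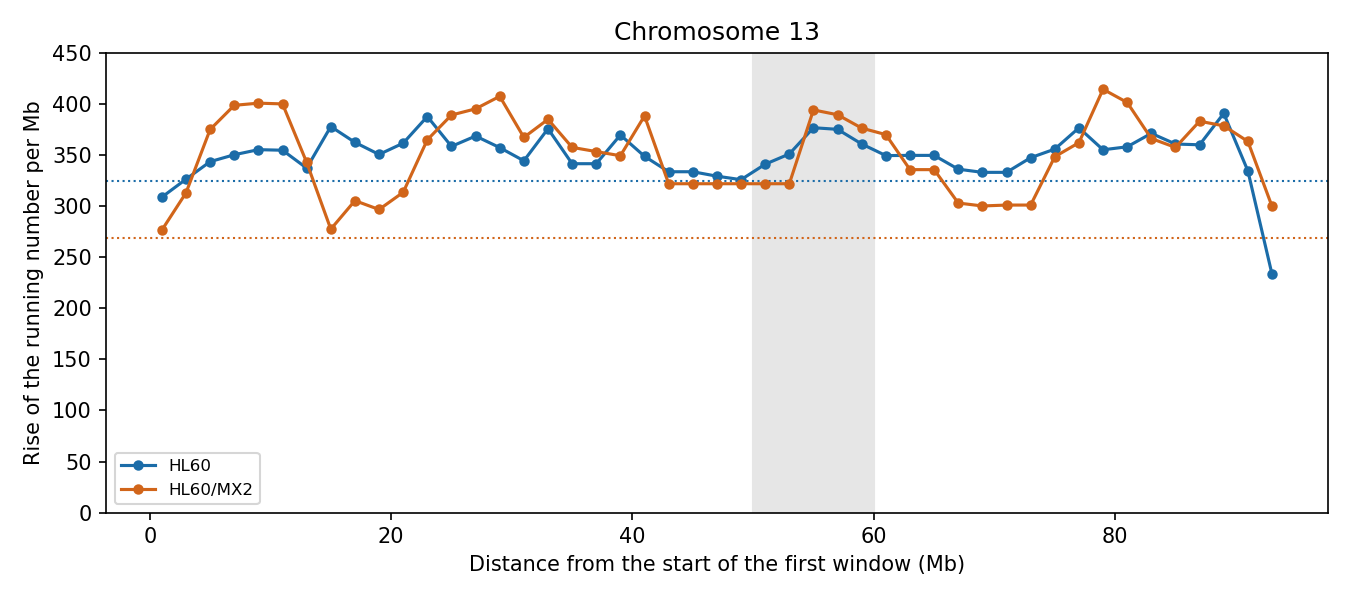
Rise of the running number per Mb in steps of 2 Mb (interpolated between listed peaks) against the distance in Mb along chromosome 13 from the start of the first window, for HL60 (blue) and HL60/MX2 (orange), with dotted lines at the autosomal values of 324.6 and 268.9 and the 70-80 Mb segment in grey. HL60/MX2 moves between about 300 and 400 in steps, and HL60 stays within a narrower band until the end of the chromosome.

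The segment at chr13:70-80 Mb had a rise of 365 per Mb in HL60 and 388 per Mb in HL60/MX2, a ratio of 1.06 and a relative ratio of 1.28, rank 11 from the highest. This value rests on a short part of the segment, since the first and last HL60/MX2 peaks lay 4.96 Mb apart and those of HL60 8.55 Mb apart. Read every 2 Mb between listed peaks, an alternative added after the data were seen, the ratio was 0.999. The segment had 13 peaks in HL60, or 71.1 per Mb of exon (37.8 to 121.5), and 12 in HL60/MX2, or 65.6 (33.9 to 114.6). The ratio of these counts was 0.923 (0.385 to 2.19), and its direction turned with the choice of peaks, to 1.2 among peaks with a score at or above their list median and 1.1 among peaks of at least 50 bp.

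Of 25 genes in that segment 8 had a peak in HL60 (32%) against 7 in HL60/MX2 (28%), near the shares of all genes. Only KLF12, a zinc finger repressor, and LMO7, an actin-linked protein of cell junctions, had peaks in both. LMO7 had 3 peaks in HL60 with scores of at most 179, where the list median was 196.8. It had 5 in HL60/MX2 with scores up to 1092, where the list median was 259.7. HL60 alone had peaks in KLHL1, KLF5, MYCBP2, SCEL, EDNRB and POU4F1. The highest was in the 3′ UTR of EDNRB, an endothelin receptor, with a score of 465.

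HL60/MX2 alone had peaks in COMMD6, UCHL3, ACOD1, SLAIN1 and OBI1. SLAIN1, which binds microtubule ends, scored 882. OBI1, a ubiquitin ligase that acts at replication origins, scored 484 near its start codon, and the peaks of the deubiquitinase UCHL3 and of ACOD1, the enzyme that makes itaconate, also lay near a start codon. None of the 13 HL60 peaks of the segment overlapped any of the 12 in HL60/MX2, where the whole lists shared 6.13% and 6.09%. With so few peaks a shared fraction of up to 24.7% in HL60 or 26.5% in HL60/MX2 lay within the exact interval.

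**Figure D5:**
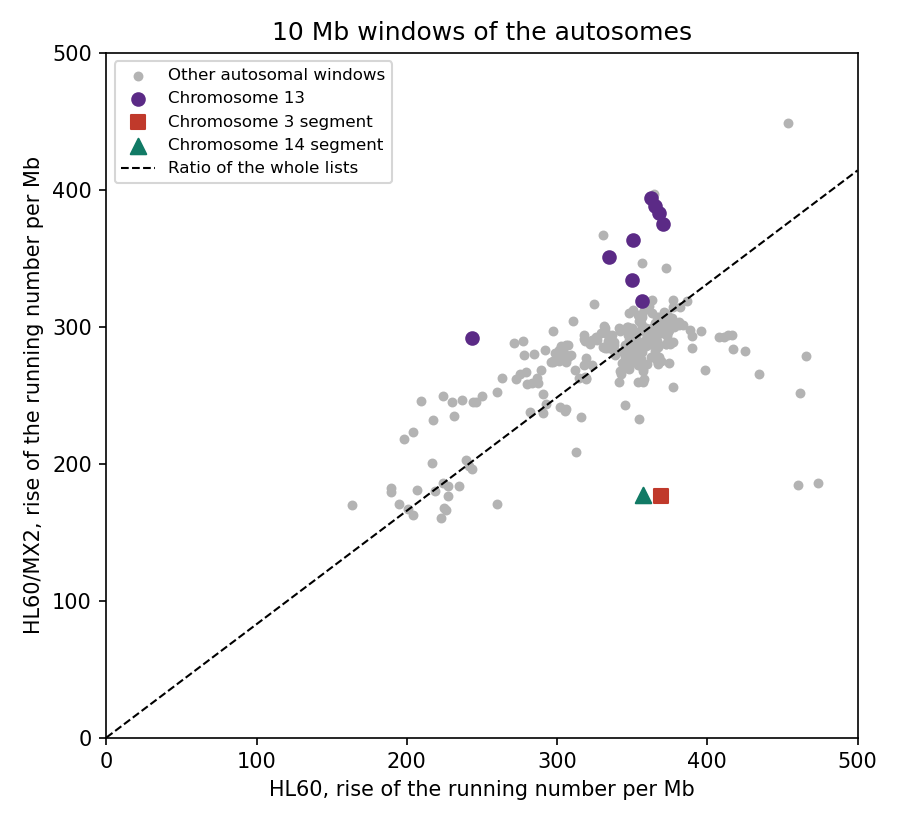
Rise of the running number per Mb in HL60/MX2 against HL60 for the 264 autosomal windows of 10 Mb (grey), with chromosome 13 (purple circles), the chromosome 3 segment (red square) and the chromosome 14 segment (green triangle) marked, and a dashed line at the ratio of the whole lists, 0.828. The chromosome 3 and 14 segments lie far below the line near 177 on the vertical axis, and the chromosome 13 windows lie above it.

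Base composition moved with this measure over the genome. Across the 264 windows the ratio and the GC percent had a Spearman correlation of 0.630 and a Pearson correlation of 0.534, as a description over windows that share a library. The segments were chosen on this ratio, and the part of base composition in their ratios was not tested.

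Chromosome 13 had a peak in 109 of its 322 genes in HL60 (33.9%, 28.7 to 39.3) and in 113 in HL60/MX2 (35.1%, 29.9 to 40.6). Both lists had a peak in 58 genes (18.0%, 13.97 to 22.7), HL60 alone in 51 (15.8%) and HL60/MX2 alone in 55 (17.1%). The shares with a peak in each list lay above those of all genes. The shares of the lines alone were near those of all genes, and the share in both lists was above its 12.0%. Genes with a peak in both lists were long, with a median of 8268 bp of exon on chromosome 13, against 4460.5 bp for genes with no peak. The same order was seen over all genes, at 7473.5 and 3544 bp.

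Some single genes of chromosome 13 carried more than 1 peak, with unlike numbers in the lists. COL4A2, a chain of basement membrane collagen, had 5 peaks in HL60 against 3 in HL60/MX2, and its neighbour COL4A1 had 2 and 0. The strongest COL4A2 peaks in HL60 lay at its start codon and in its coding sequence, both with a score of 779. MYO16, an unconventional myosin, had 5 and 1. POSTN, which encodes the matrix protein periostin, had 4 peaks in HL60, with scores from 51.4 to 164, and 0 in HL60/MX2. DOCK9, an activator of the GTPase CDC42, had 3 and 7, with a highest HL60/MX2 score of 1136.

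Counts in the direction of HL60/MX2 were also found in ZMYM2, ADPRHL1 and NALCN. ZMYM2, a zinc finger gene that is fused to FGFR1 in some myeloid neoplasms, had 0 peaks in HL60 against 4 in HL60/MX2, with scores of at most 217. ADPRHL1 had 1 and 5, and NALCN, a sodium leak channel, had 2 and 4. ATP12A had 4 in each list, of which 1 overlapped, and CCDC168 had 4 and 3. DGKH had 4 and 1, and EPSTI1, an interferon-induced gene, had 3 and 0. Single numbers of this size have wide counting error, and no gene was tested.

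The highest HL60 scores of chromosome 13 were 1712 in TPTE2 (rank 38), 973 in the 3′ UTR of SOX1, 875 in ATP8A2, a phospholipid flippase, 864 in EPSTI1 and 853 in CNMD. TPTE2 has near-identical relatives in the genome, so its reads may be shared with them. In HL60/MX2 ATP12A, ZC3H13, RCBTB2 and RAB20 all had a score of 3100, the highest of that list, which 53 peaks shared. ZC3H13 belongs to the complex that places m6A on mRNA, and its peak of 556 bp lay mainly in coding sequence. PRR20C followed at 2541, and since PRR20A, PRR20C and PRR20E are near-identical copies their 3 HL60/MX2 peaks are uncertain as to gene.

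Lists of genes were compared by counts alone, and they were picked with earlier results of these data known. The list names are loose. GEMIN2, DZIP1 and N4BP2L1 were counted under DNA repair and cell cycle, and UGGT2 and KPNA3 under the ubiquitin pathway. The shares therefore describe the lists as picked and not the pathways in their names. Among all genes 12.0% had peaks in both lists, 14.5% in HL60 alone, 16.6% in HL60/MX2 alone and 56.9% in neither, and these shares stand behind each count that follows. Of 29 placed leukemia and tumor genes, 4 had peaks in both lists, 7 in HL60 alone, 5 in HL60/MX2 alone and 13 in neither, or 13.8%, 24.1%, 17.2% and 44.8%. RB1 had the same coding exon 16 peak in both, with a score of 218 (rank 3691) in HL60 and 265 (rank 4026) in HL60/MX2. FLT3 had 1 peak in HL60/MX2, at chr13:28626689-28626811 in its coding sequence with a score of 126, and 0 in HL60. FOXO1 had 1 peak near its stop codon in HL60, with a score of 403, and 0 in HL60/MX2.

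Of 26 DNA repair and cell cycle genes, 4 had peaks in both lists, 6 in HL60 alone, 4 in HL60/MX2 alone and 12 in neither, or 15.4%, 23.1%, 15.4% and 46.2%. BRCA2, which acts in homologous recombination, had 2 coding peaks in HL60/MX2, of 29 and 18 bp with scores of 349.6 and 227, and 0 in HL60. Its neighbour ZAR1L had a shared peak near the BRCA2 start on the opposite strand. The score of that peak was 234 (rank 3349) in HL60 and 70.03 (rank 7512) in HL60/MX2. The nucleotide excision repair gene ERCC5 had a peak in HL60 alone, and the Mediator kinase CDK8 and NEK3 in HL60/MX2 alone. CCNA1 had 1 shared peak, at rank 3645 in HL60 with a score of 218 and rank 438 in HL60/MX2 with a score of 1035.

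Of 25 transport and channel genes, 9 had peaks in both lists, 3 in HL60 alone, 3 in HL60/MX2 alone and 10 in neither, or 36%, 12%, 12% and 40%, against 12.0%, 14.5%, 16.6% and 56.9% of all genes. ABCC4, an ATP-binding cassette exporter of nucleotides and drugs, had 3 peaks in each list and none of them overlapped. Its HL60 scores ran from 131 to 183 and its HL60/MX2 scores from 237 to 303, on scales that are not known to be comparable. SLC10A2, the ileal bile acid carrier, had a shared 3′ UTR peak at rank 7067 in HL60 and 1141 in HL60/MX2.

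Of 31 cytoskeleton and adhesion genes, 13 had peaks in both lists (41.9%, all genes 12.0%), 8 in HL60 alone (25.8%, all genes 14.5%), 0 in HL60/MX2 alone (all genes 16.6%) and 10 in neither (32.3%, all genes 56.9%). Their peaks numbered 40 for HL60 and 30 for HL60/MX2, while their median exon length was 8816 bp. The genes with a peak in HL60 alone included PCDH9, STARD13, COL4A1 and SCEL on chromosome 13, LRRFIP2 on chromosome 3, and AKAP6 and RALGAPA1 on chromosome 14. Of 26 ubiquitin pathway genes, 3 had peaks in both lists, 6 in HL60 alone, 5 in HL60/MX2 alone and 12 in neither, or 11.5%, 23.1%, 19.2% and 46.2%. WDR48, the partner that activates the deubiquitinase USP1, had 1 peak in each list, in different places. Their scores were 511 (rank 851) in HL60 and 656 (rank 1149) in HL60/MX2.

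Of the 16 overlapping pairs, 13 lay on chromosome 13, 1 on chromosome 3 and 2 on chromosome 14, in BAZ1A and FAM177A1. On chromosome 13 they were 7.30% of HL60 peaks (3.95 to 12.2) and 7.10% of HL60/MX2 peaks (3.84 to 11.8). The whole lists shared 6.13% and 6.09%. The chromosome 3 segment shared 3.03% and 5.56%, and the chromosome 14 segment 6.45% and 9.52%, all on 1 or 2 pairs. The overlaps ran from 12 to 519 bp with a median of 89.5 bp, and 12 of 16 pairs had the same start or the same end. The RB1 peak at chr13:48954301-48954377 and the BAZ1A peak at chr14:35252968-35253133 covered the whole exon in both lists.

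The choice did not use score, region class, whole-exon cover or motifs. For chromosome 13 peaks each class, whole-exon and motif share had an exact interval that included the share of its list. The segments of chromosomes 3 and 14 held too few peaks to show likeness. In HL60 36.4% of chromosome 3 peaks covered a whole exon (20.4 to 54.9, whole list 22.7%). In the 3′ UTR the chromosome 14 share of HL60 was 38.9% (17.3 to 64.3, whole list 21.1%). The median score on chromosome 13 was 196.8 in HL60 and 259.7 in HL60/MX2, the same as the whole lists. The chromosome 3 segment had medians of 211 and 173.5 and the chromosome 14 segment 170.7 and 290.4. On chromosome 3 19 of 33 HL60 peaks (57.6%, 39.2 to 74.5) and 8 of 18 HL60/MX2 peaks (44.4%, 21.5 to 69.2) reached the median of their list, and both intervals included 50%.

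Among peaks in an exon of the longest coding transcript, the coding sequence held 64.5% on chromosome 13 in HL60 (56.3 to 72.1) and 62.6% in HL60/MX2 (54.5 to 70.2). The whole lists had 63.9% and 59.8%. Start codon peaks made up 4.61% (1.87 to 9.26) in HL60 and 11.6% (7.03 to 17.7) in HL60/MX2, and 3′ UTR peaks 22.4% and 14.8%. The whole lists moved in the same directions, from 7.07% to 11.8% at the start codon and from 21.1% to 18.3% in the 3′ UTR. In the 10 Mb segments of chromosomes 3 and 14 the classes rested on 14 to 25 peaks per list, and the coding sequence held 68% and 57.1% on chromosome 3 and 50% and 70.6% on chromosome 14.

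The motif GGAAA or GGAAG, on the strand of the peak, was in 46.07% of chromosome 13 peaks in HL60 (38.6 to 53.7) against 44.8% in HL60/MX2 (37.5 to 52.3). It was in 48.5% and 44.4% on chromosome 3 and 51.6% and 47.6% on chromosome 14, and in 43.9% and 43.04% of the whole lists. A match to CTGGA or CTGGG, or to CTGTA or CTGTG, was in 54.5% and 55.7% of chromosome 13 peaks, 57.6% and 55.6% on chromosome 3, and 41.9% and 57.1% on chromosome 14. The whole lists had 56.0% and 57.2%, within the interval of every one of these shares. CTGGA and GGAAA or GGAAG can overlap in the letters GGA, so a stretch may be counted for both.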

How the data were processed

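Per the labels and the methods, the authors trimmed reads with Cutadapt 1.9.3, aligned them to hg19 with Hisat2 2.0.4 and called peaks with MACS, whose version and settings are not given in the sources used here. Their own scripts kept the peaks that overlap protein-coding exons. The deposited lists give a position, strand, running number and peak score. The scale of the deposited score is not stated, so scores are compared within a list. Read counts and depth are unknown. The input libraries and RNA levels were not analysed here.

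Starts are printed counted from 1. Each peak was assigned to the gene of its strand with the largest exon overlap, using 20162 autosomal and sex-chromosome genes of GENCODE release 44 lifted to hg19. Exon length merges all transcripts, and start and stop codon classes reach 100 nt. A shared peak overlaps by at least 1 bp on its strand. Windows needed 3 Mb between listed peaks. Intervals are exact Clopper-Pearson or Poisson at 95% and cover counting error only. Samples were grouped by the cell line in the labels.

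Named genes were those with a shared peak, the 5 with the most peaks, the highest scoring peaks and members of the lists. Some genes that are counted are not reported here by name. The segments and lists were chosen with earlier results of these data known. Genes named beside an edge of a stretch, in the stretches beyond the segments or next to another gene were chosen after their values were seen. POSTN met none of these rules and was also chosen after its counts were seen. Alternatives were other slopes, strands, score and length limits, transcripts, overlaps and motif strands. Gene assignment and ratios were tested on simulated data. Python 3.11.15, numpy 2.4.6, scipy 1.17.1 and matplotlib 3.10.9 were used.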

Additional observations from a re-analysis of the deposited data

How the results depend on the processing

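Of 96 values under alternatives, 75 stayed within the exact counting interval of the reported value (counts of genes and pairs, within 1.5 times it) and 21 moved beyond it. In 5 cases a ratio crossed 1. The chromosome 13 rise ratio went from 1.00 to 0.995 with a Theil-Sen slope and to 0.999 without the first and last peak, and the peak count ratio of chr13:70-80 Mb went from 0.923 to 1.2 with scores at or above the list median and to 1.1 with peaks of at least 50 bp. With exons of the longest coding transcript alone, peaks per Mb of exon were, for HL60 and HL60/MX2, 134.6 and 138.4 on chromosome 13, 138.5 and 75.5 in the chromosome 3 segment and 178.2 and 120.7 in the chromosome 14 segment, since the exon length is smaller. With peaks at or above the list median score alone, genes with a peak in HL60 and HL60/MX2 were 66 and 71 on chromosome 13. They were 17 and 7 in the chromosome 3 segment, 14 and 9 in the chromosome 14 segment and 4 and 4 in chr13:70-80 Mb. Of these values, only the 17 genes of HL60 did not move beyond the limit. On the opposite strand GGAAA or GGAAG was in 30.9% of HL60 and 29.0% of HL60/MX2 peaks of chromosome 13. It was in 12.1% and 27.8% on chromosome 3, 19.4% and 33.3% on chromosome 14, and 46.2% and 16.7% in chr13:70-80 Mb. The HL60/MX2 values of chromosomes 3 and 14 and the HL60 value of chr13:70-80 Mb stayed within the interval. The cause was not tested. With overlap of at least 50% of both peaks, shared pairs were 8 on chromosome 13 and 1 in the chromosome 14 segment. Read every 2 Mb, an alternative chosen after seeing the data, the rise ratio for chr13:70-80 Mb went from 1.06 to 0.999. No paired analysis was possible because each cell line has 1 library and no replicate numbers, and leaving out a library was impossible for the same reason. Depth is not known from the lists.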

Other observations

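The low stretches of HL60/MX2 reached beyond the 10 Mb segments, and the genes there were counted in the same way. On chromosome 3 from 40 Mb to XCR1 22 of 61 genes had a peak in HL60 (36.1%, all genes 26.4%) against 7 in HL60/MX2 (11.5%, all genes 28.6%), with 27 and 7 peaks. Both lists had a peak in ENTPD3 and LYZL4 only, HL60 alone in 20 genes and HL60/MX2 alone in 5. The zinc finger gene ZNF662 had 3 peaks in HL60 against 0 in HL60/MX2, and the mitotic kinesin KIF15, the mitochondrial leucyl-tRNA synthetase LARS2 and ZNF502 had 2 and 0. The 5 genes of HL60/MX2 alone were SS18L2, ANO10, ZNF852, ZDHHC3 and XCR1, with 1 peak each.

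On chromosome 3 from TOP2B to 30 Mb 3 of 12 genes had a peak in HL60 (25%, all genes 26.4%) against 5 in HL60/MX2 (41.7%, all genes 28.6%), with 8 and 6 peaks. SLC4A7, a bicarbonate cotransporter, had 5 peaks in HL60 against 0 in HL60/MX2. EOMES, a T-box factor of lymphocytes, had 0 and 2. TOP2B, the beta form of topoisomerase II, had 0 and 1.

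On chromosome 14 from NYNRIN to 30 Mb 6 of 11 genes had a peak in HL60 (54.5%, all genes 26.4%) against 4 in HL60/MX2 (36.4%, all genes 28.6%), with 7 and 6 peaks. CTSG, the neutrophil granule protease cathepsin G, had 1 peak in HL60 against 0 in HL60/MX2, and GZMH, a granzyme, had 0 and 1. NYNRIN had 1 and 3. NYNRIN lies between the peaks of CARMIL3 and GZMH, where the edge could not be placed more closely. It may therefore lie outside the low stretch. The outer ends at TOP2B, XCR1 and NYNRIN were set by genes with an HL60/MX2 peak, and these genes are among those counted. These stretches were picked after the edges were seen, each line has 1 library, and nothing was tested.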
